A study of Mus musculus with 2 samples.

Results

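The genes described here are the laminin chains and the integrin subunits, measured by single-cell RNA-Seq in the islets of WT and GKO (ghrelin-knockout) mice. They were chosen by symbol and not by level, as all laminin α, β and γ chains and all integrin α and β subunits in the deposited gene list. The rule found 37 symbols on 38 of 27998 listed genes, with 11 laminin chains, 18 integrin α subunits and 8 integrin β subunits. Itgam stands on 2 gene identifiers, and the second of them overlaps the first on the same strand, so that reads may fit both. How such reads were counted was not examined, so the Itgam values may be affected. That second entry held at most 2 UMIs in any of the main cell classes, and the values below are those of the first.

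Both groups were C57BL/6N littermates at 8 weeks of age on standard chow, and GKO mice were homozygous for the ghrelin deletion of the line GKO1. Islets of 4 mice were pooled for each genotype, dissociated and sorted for viable single cells, and 1 library was made per genotype. No replicate of a genotype was therefore available, no test was made, and every interval below covers counting error only. A UMI (unique molecular identifier) marks 1 captured transcript 3′ end, so values are given as CPM, the UMIs of a gene per 1000000 UMIs of the cells summed, and are not scaled to transcript length.

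The WT library held 158067110 UMIs in 7792 barcodes and the GKO library 103511757 UMIs in 7289 barcodes, and 18 barcode sequences occurred in both. Ghrl, the deleted gene, was at 276 CPM in WT and 2.71 CPM in GKO. Barcodes were placed in 8 classes by marker genes that are not laminins or integrins. These were β, α, δ and γ cells by the leading hormone, and endothelial, stromal, pericyte and macrophage barcodes, and they took 6572 of 7100 retained barcodes in WT and 5711 of 6346 in GKO. β cells numbered 2236 in WT and 852 in GKO, stromal barcodes 271 and 626, pericytes 173 and 345, and macrophages 197 and 453. A class is a range of a marker share, and most barcodes near a limit were δ cells, of which 321 in WT and 232 in GKO lay within 1.5-fold of the 10% limit for Sst. Of 27 markers not used for the classes, 23 in WT and 24 in GKO were highest in their own class, and the exceptions included Gc and Fxyd6 in both libraries and Mafa in WT. Acinar transcripts, which mark free RNA of exocrine cells, summed to 241 CPM in WT and 46.1 CPM in GKO β cells, and to 634 and 173 CPM in endothelial barcodes.

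Laminins are heterotrimers of an α, a β and a γ chain that assemble into the sheet of the basement membrane, on which endothelial and epithelial cells rest. Integrins are receptors of an α and a β subunit that bind laminin, collagen, fibronectin or cell surface ligands and couple them to the actin cytoskeleton. Islet endocrine cells are known to lie against the basement membrane of capillaries and to bind it through integrins that contain the β1 subunit.

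Of the 38 genes, 27 had at least 100 UMIs over the classes in each library, and 13 of these 27 were at least 2-fold higher in 1 class than in every other class in both libraries. Across all 13111 genes with that depth the share was 16.7%. The leading class was endothelial for 4 members (Itga6, Itgb3, Itga5 and Lama3, against 5.03% of all genes), macrophage for 3 (Itga4, Itgax and Itgb2, against 3.74%), δ cells for 2 (Itgb6 and Itgb8, against 2.07%), stromal for 2 (Lama2 and Lamc3, against 2.29%) and pericyte for 2 (Itga7 and Itga10, against 2.27%). No member was led by β cells, α cells or γ cells, which led 0.557%, 0.641% and 0.107% of all genes. The remaining 14 tested members, Itgb1 and Lamc1 among them, were shared between classes. Only 17 members reached 50 CPM in some class in both libraries. Lama1, Itgad, Itgae, Itga2 and the second Itgam entry stayed under 1.5 CPM in every one of the 8 classes.

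**Figure D1:**
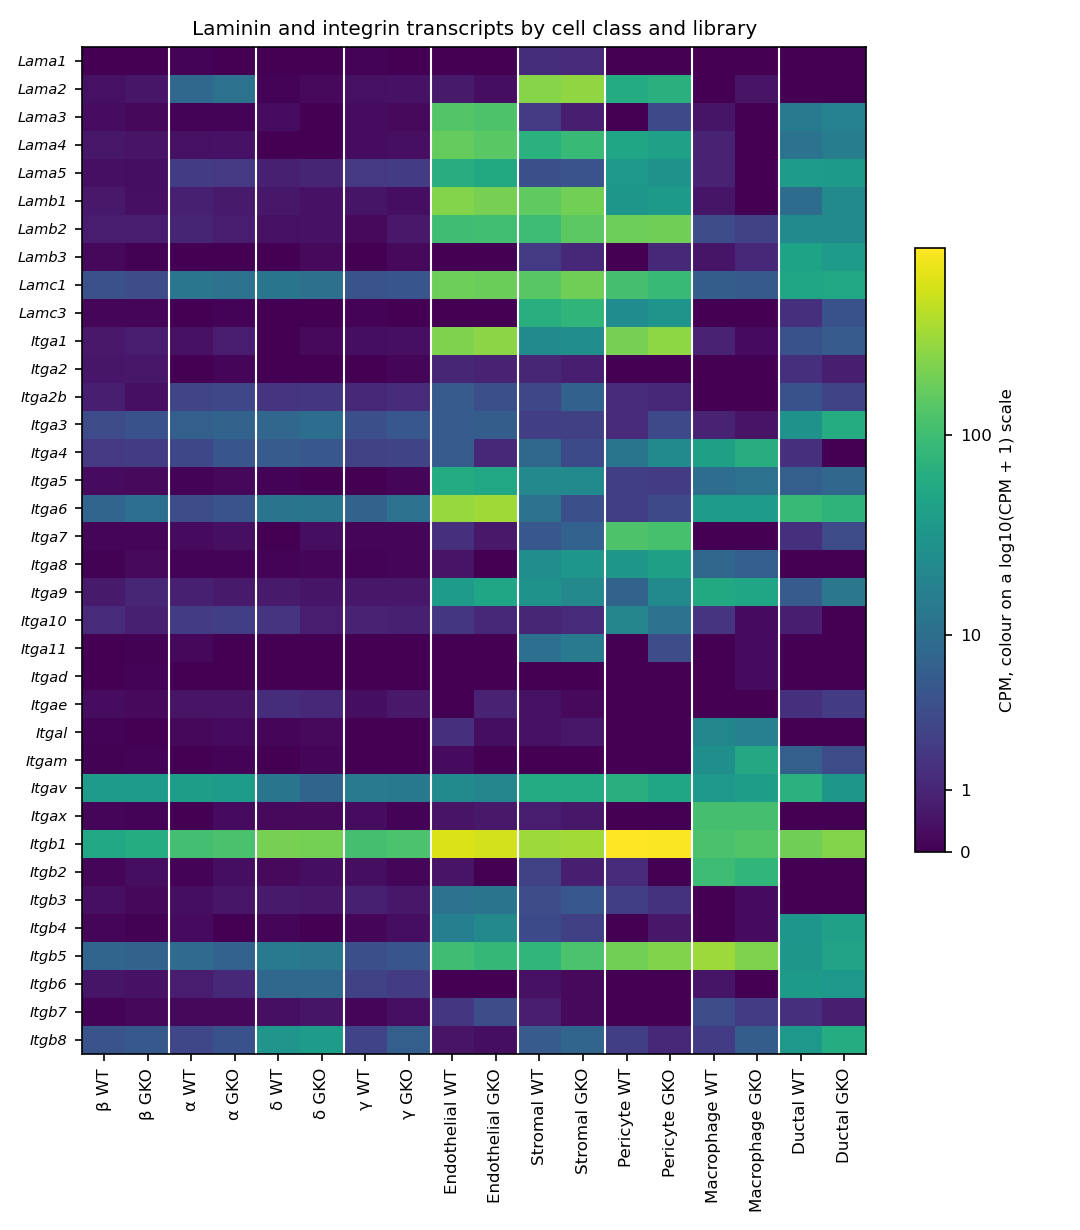
CPM of 36 laminin chains and integrin subunits (rows) in 8 cell classes and in ductal barcodes (columns, WT and GKO side by side), with colour on a log10(CPM + 1) scale. Abundant laminin chains such as Lama2, Lama4 and Lamb1 are brightest in endothelial or stromal columns and dimmer in endocrine and macrophage columns. Lama2 is dark in endothelial columns, whereas Lama4 shows in endothelial, stromal and pericyte columns. Itgb1 is bright in every class.

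The promoters of 3 members are shown because their transcripts were confined to few of the 8 classes and because comparisons below turn on them. Itgam and Itgax lie side by side on chromosome 7 and were found in macrophages among the 8 classes. Lama2 was found in stromal cells, in pericytes and, at a low level, in α cells. The sequences are the 250 bases before the RefSeq start of each gene in GRCm38.p6 and run 5′ to 3′ on the strand of the gene. Itgam is at chr7:128062390-128062639 on the plus strand, Itgax at chr7:128129300-128129549 on the plus strand and Lama2 at chr10:27616943-27617192 on the minus strand. In GENCODE vM21 the Lama2 gene begins farther upstream, at 27619758, so its window lies inside that gene model. Capitals mark the purine-rich ETS-type motif GAGGAA and the GC box GGGCGG, searched on both strands.
Itgam: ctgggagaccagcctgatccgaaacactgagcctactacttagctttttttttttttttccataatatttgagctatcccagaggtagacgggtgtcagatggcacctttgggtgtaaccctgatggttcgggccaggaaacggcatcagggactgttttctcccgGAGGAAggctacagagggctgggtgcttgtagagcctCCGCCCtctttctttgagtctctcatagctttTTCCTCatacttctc
Itgax: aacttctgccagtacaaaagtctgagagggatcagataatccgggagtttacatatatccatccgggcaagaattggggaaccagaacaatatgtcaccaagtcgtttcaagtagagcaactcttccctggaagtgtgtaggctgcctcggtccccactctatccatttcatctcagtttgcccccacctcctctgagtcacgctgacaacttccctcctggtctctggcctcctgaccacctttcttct
Lama2: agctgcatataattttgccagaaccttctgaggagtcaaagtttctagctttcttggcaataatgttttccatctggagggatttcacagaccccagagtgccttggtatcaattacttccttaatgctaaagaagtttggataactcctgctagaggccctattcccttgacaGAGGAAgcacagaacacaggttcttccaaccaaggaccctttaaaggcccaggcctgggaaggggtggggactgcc
The GAGGAA motif began at −84 on the plus strand of the Itgam window and at −15 on its other strand, with a GC box at −47, and it began at −76 in the Lama2 window. Neither motif was found in the Itgax window. Over the 26 windows available for 23 members, 13 held GAGGAA and 9 held GGGCGG, and none held TATAAA. Among 32851 promoters of the genome the shares were 23.3%, 32.7% and 12.4%. A match of letters is a description of the window and does not show binding.

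Laminin α chains were held by vascular and stromal barcodes, and each class had its own set. Endothelial barcodes carried Lama4 at 162 CPM in WT and 142 CPM in GKO. Lama3, best known as a chain of epithelial laminins, was at 134 and 123 CPM there, and Lama5 was at 63.7 and 56.6 CPM. Lama2, the α chain of muscle and mesenchymal basement membranes, was at only 0.63 and 0.29 CPM in endothelial barcodes. It was the leading α chain of stromal barcodes, at 235 CPM in WT and 261 CPM in GKO, followed by Lama4 at 69.9 and 89.2 CPM. Pericytes carried Lama2 (60.2 and 68.2 CPM), Lama4 (50.4 and 44.4 CPM) and Lama5 (34.4 and 29.4 CPM).

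As a share of the UMIs of all laminin α chains, Lama4 made up 45.0% in WT and 44.1% in GKO endothelial barcodes, Lama3 37.2% and 38.2%, and Lama5 17.7% and 17.6%. In stromal barcodes Lama2 made up 75.2% and 73.1%. The chains are different transcripts whose capture was not measured, so these shares are of counted 3′ ends and not of protein. The mixture in each class differed between the libraries by far less than it differed between classes.

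Laminin β and γ chains followed the same division. Lamb1 was the leading β chain of endothelial barcodes, with 228 CPM in WT and 200 CPM in GKO against 102 and 105 CPM for Lamb2. In pericytes the order was turned, with Lamb2 at 182 and 186 CPM and Lamb1 at 33.2 and 36.6 CPM, so that Lamb2 took 84.6% and 83.2% of their laminin β UMIs. Stromal barcodes held both, Lamb1 at 156 and 193 CPM and Lamb2 at 96.6 and 146 CPM. Lamc1, the γ chain of most laminins, was at 181 and 178 CPM in endothelial, 141 and 186 CPM in stromal and 109 and 88.7 CPM in pericyte barcodes. Lamc3 was restricted to stromal barcodes (66.5 and 78.7 CPM) and pericytes (24.6 and 31.1 CPM) among the 8 classes, with at most 0.12 CPM in the other six, and made up 31.8% and 29.3% of the laminin γ UMIs of stromal barcodes.

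**Figure D2:**
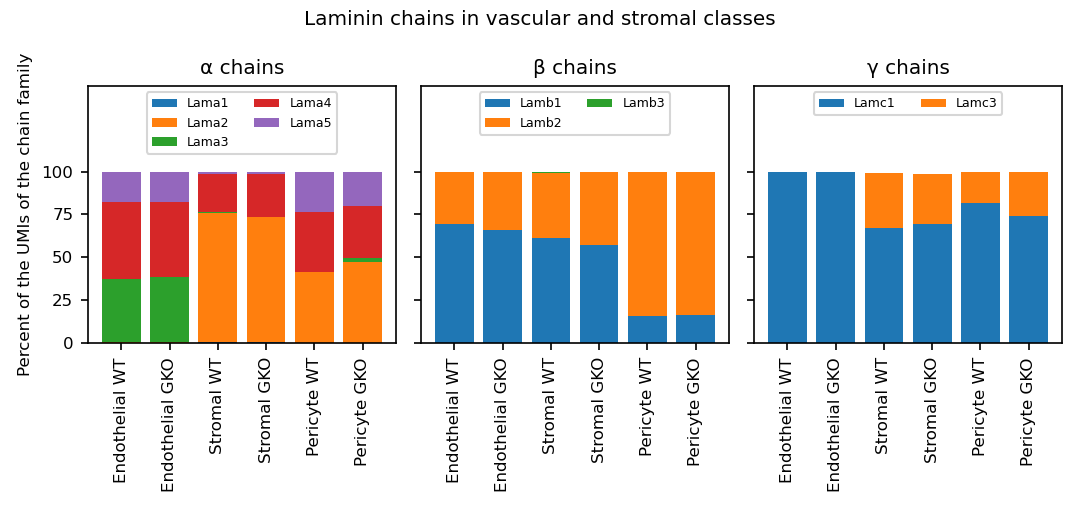
Share of UMIs (percent) of 10 laminin chains among all the α, β and γ chains in endothelial, stromal and pericyte barcodes of WT and GKO. Bars end below 100% where a chain is not drawn. The colours change between classes, with Lama2 at 75.2% in WT stromal barcodes and Lamb2 at 84.6% in WT pericytes, and the 2 libraries of a class look alike.

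Single endothelial cells carried several chains at once. Each cell was thinned to 5000 UMIs, and 145 WT and 118 GKO endothelial barcodes were too shallow for this. Lama3 was seen in 44.6% of WT cells (95% Clopper-Pearson interval 39.8% to 49.5%) and in 40.7% of GKO cells (35.1% to 46.4%). Both Lama3 and Lama4 were seen in 24.9% of WT and 19.7% of GKO cells. Among WT endothelial cells with Lama3, 55.9% also had Lama4, against 44.6% of those without Lama3, and in GKO these shares were 48.4% and 47.0%. At this depth no exclusion of one chain by the other was seen.

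Integrin receptors of the vascular and stromal classes were led by Itgb1, the β1 subunit that pairs with most laminin- and collagen-binding α subunits. Itgb1 was highest in pericytes, at 794 CPM in WT and 772 CPM in GKO, then in endothelial barcodes, at 553 and 502 CPM, and in stromal barcodes, at 301 and 315 CPM. After thinning, it was seen in all 63 WT pericytes and in 97.5% of 157 GKO pericytes, although 110 WT and 188 GKO pericytes were too shallow to be used.

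The α subunits separated the classes. Itga6, a laminin receptor subunit, was at 286 CPM in WT and 303 CPM in GKO endothelial barcodes and at 39.4 and 38.6 CPM in macrophages, the next class. Itga1, a collagen and laminin receptor subunit, was shared by endothelial barcodes (218 and 246 CPM) and pericytes (203 and 253 CPM). Itga7, a laminin receptor subunit of muscle, was at 123 and 113 CPM in pericytes and at most 7.17 CPM in any other of the 8 classes. Itga5, the subunit of the main fibronectin receptor, was at 60.3 and 53.0 CPM in endothelial barcodes and near 22 CPM in stromal barcodes (22.2 and 22.6 CPM). Itga8 was at 33.2 and 43.8 CPM in pericytes and at 25.6 and 32.4 CPM in stromal barcodes, and Itga11, a collagen receptor subunit, was found in stromal barcodes at 10.4 and 14.9 CPM.

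Itga6 and Itgb1 were both seen in 64.5% of thinned WT endothelial cells (59.7% to 69.1%) and in 62.6% of GKO cells (56.9% to 68.1%). Itga1 and Itgb1 were both seen in 59.0% and 56.7%. In pericytes Itga7 and Itgb1 were both seen in 46.0% of WT and 41.4% of GKO cells. These values are transcripts in the same cell and do not measure assembled receptors.

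Macrophages expressed the leukocyte integrins and few laminins. Itgb5, which pairs with αv, was their highest subunit, at 294 CPM in WT and 220 CPM in GKO. Pericytes held Itgb5 too, at 189 and 222 CPM, and so did endothelial barcodes, at 102 and 84.6 CPM. Itgax (CD11c) was at 109 and 111 CPM, and Itgb2, the common β subunit of the leukocyte integrins, was at 96.2 and 80.8 CPM. Both were nearly absent from the other 7 classes, with Itgb2 at most 2.77 CPM and Itgax at most 0.69 CPM. Outside the 8 classes, antigen-presenting barcodes low in C1q held more Itgb2 than macrophages in both libraries, and more Itgax in WT. Itgam (CD11b) was at 26.6 and 54.6 CPM, Itgal (CD11a) at 20.4 and 17.3 CPM, and Itga4, which binds Vcam1 and fibronectin, at 43.0 and 63.0 CPM. The laminin α chains together came to 2.22 and 0.44 CPM.

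Endocrine cells held far less laminin α and β than vascular cells. The laminin α chains together came to 1.47 CPM in WT and 1.37 CPM in GKO β cells, to 1.10 and 1.21 CPM in δ cells to 2.88 and 3.24 CPM in γ cells and to 11.1 and 14.0 CPM in α cells, against 360 and 322 CPM in endothelial barcodes. The laminin β chains came to at most 1.78 CPM in any endocrine class. The laminin γ chains were higher, at 16.4 and 14.8 CPM in α cells, 17.8 and 13.6 CPM in δ cells, 7.40 and 7.35 CPM in γ cells and 6.83 and 5.85 CPM in β cells. With hormone UMIs left out of the total, α cells held 23.7 and 21.3 CPM and δ cells 25.6 and 19.5 CPM. On that scale γ cells held 14.6 and 14.2 CPM and β cells 20.1 and 16.3 CPM, so the order of these classes was not the same. Lama4 was at 0.52 and 0.44 CPM in β cells, which is 0.32% and 0.31% of its endothelial level. Endothelial markers not used for the classes were in β cells at 0.34% and 0.25% of their endothelial level, close to the share of Lama4. Lamc1 was at 12.7 and 11.1 CPM in α cells and 12.5 and 10.8 CPM in δ cells. In GKO these values were 5.96% and 5.79% of the level in stromal barcodes, which held most Lamc1, against 0.14% and 0.07% for stromal markers not used for the classes.

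Lama2 was higher in α cells than in the other endocrine classes. It was at 8.32 CPM in WT (117 UMIs in 84 of 1029 cells) and at 11.5 CPM in GKO (210 UMIs in 153 of 1371 cells). In β cells it was at 0.36 and 0.50 CPM, in δ cells at 0.06 and 0.19 CPM and in γ cells at 0.35 and 0.40 CPM. The α cell values were 3.54% and 4.42% of the stromal level, whereas stromal markers not used for the classes were in α cells at 0.12% and 0.14% of theirs. In barcodes with a Lama2 UMI those stromal markers summed to 46.2 CPM in WT and 27.8 CPM in GKO, against 12.5 and 17.1 CPM in α cells without one. Gcg took 27.3% and 27.1% of the UMIs of the α cells with Lama2 and 25.1% and 26.1% of those without. After thinning, Lama2 was seen in 4.32% of WT α cells (3.16% to 5.76%) and in 5.68% of GKO α cells (4.51% to 7.05%).

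Itgb1 was the highest integrin in all 4 endocrine classes. It was at 54.3 CPM in WT and 61.4 CPM in GKO β cells, 108 and 116 CPM in α cells, 111 and 118 CPM in γ cells, and 199 and 198 CPM in δ cells. Hormone transcripts took 66.0% of the UMIs of WT β cells and 30.6% of those of WT δ cells, which lowers the CPM of all other genes in β cells. Over a total that leaves out hormone UMIs, Itgb1 was at 160 and 171 CPM in β cells, 156 and 167 CPM in α cells, 219 and 228 CPM in γ cells and 287 and 283 CPM in δ cells. δ cells were therefore highest on both scales and in both libraries, while the order of β and α cells was not the same on the 2 scales.

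Itgav, the αv subunit of receptors for vitronectin, fibronectin and latent TGF-β, was at 39.1 and 38.6 CPM in β cells and 40.0 and 39.3 CPM in α cells. These intervals overlapped. It was lower in γ cells, at 14.9 and 13.7 CPM, and in δ cells, at 12.4 and 7.70 CPM. Over the total without hormone UMIs β cells stood apart, at 115 and 108 CPM, followed by α cells at 57.9 and 56.9 CPM, γ cells at 29.3 and 26.6 CPM and, in WT, δ cells at 17.9 CPM, with δ cells lowest in GKO too.

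Among the 8 classes δ cells led Itgb6 and Itgb8, 2 of the β subunits known to pair with αv and to bind latent TGF-β. Ductal barcodes, however, held more of Itgb6 (36.7 and 34.5 CPM) and also held Itgb8 (33.8 and 60.8 CPM). Itgb8 was at 31.2 CPM in WT (95% interval 28.6 to 34.1) and 39.3 CPM in GKO (35.7 to 43.3) in δ cells, and at most 7.72 CPM in any other of the 8 classes. Itgb6 was at 8.58 and 8.44 CPM in δ cells and at 2.64 and 2.32 CPM in γ cells, the next class. After thinning, Itgb8 was seen in 13.6% of WT and 16.8% of GKO δ cells. Itgb5 was also higher in δ cells (14.8 and 13.3 CPM) than in β cells (7.76 and 7.37 CPM), but with hormone genes left out it was at 21.3 and 19.0 CPM in δ cells and at 22.8 and 20.5 CPM in β cells.

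**Figure D3:**
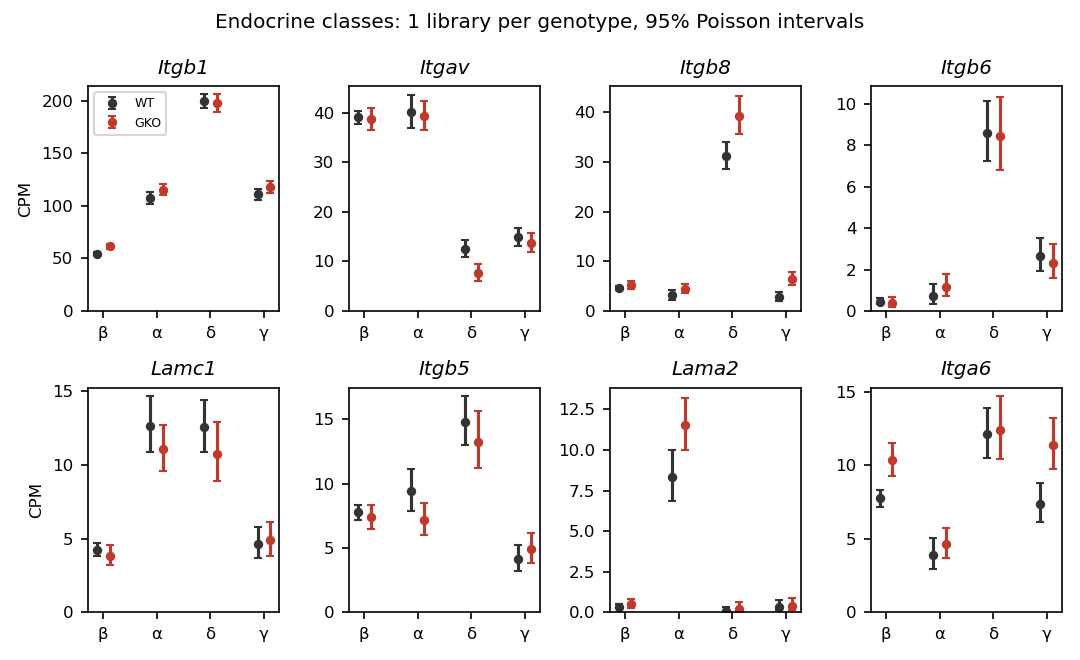
CPM of 8 members in β, α, δ and γ cells, with WT in black, GKO in red and bars for 95% Poisson intervals of 1 library each. Itgb1 and Itgb8 are highest in δ cells, Itgav in β and α cells and Lama2 in α cells, in both libraries.

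The comparison of GKO with WT asked whether loss of ghrelin goes with another level of these genes in any class. There were 86 pairs of a member and a class with at least 100 UMIs in both libraries together. Of these, 5 were at least 1.5-fold higher in GKO, 3 were at least 1.5-fold lower, and 78 lay within that range. Over the 68005 such pairs of all genes, 2.74% were higher and 2.18% lower. The interval of the log2 ratio excluded 0 for 30 of the 86 pairs. Among them were all 8 pairs past 1.5-fold, which were picked by that same ratio. Pooled mice, library preparation and genotype cannot be told apart with 1 library each, and a class sum cannot separate fewer transcripts per cell from another mixture of cells.

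In endothelial barcodes none of 14 members and in pericytes none of 10 members passed 1.5-fold in either direction. Over all genes, 2.08% were higher and 2.47% lower in endothelial barcodes, and 5.23% and 2.64% in pericytes. The laminin chains of endothelial barcodes were slightly lower in GKO for Lama4 (log2 ratio −0.19, interval −0.35 to −0.02) and Lamb1 (−0.19, −0.33 to −0.05), and Itga1 was slightly higher (0.18, 0.04 to 0.31). Itgb1, their highest integrin, was slightly lower (−0.14, −0.23 to −0.05). The ratio of Lama3 was −0.12 (−0.30 to 0.06) and that of Lamc1 was −0.03 (−0.18 to 0.13). Itga6 had a ratio of 0.09 (−0.03 to 0.20) and Lamb2 one of 0.04 (−0.16 to 0.24). In pericytes Itgb1 had a ratio of −0.04 (−0.18 to 0.10) and Itga1 one of 0.32 (0.06 to 0.59).

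In stromal barcodes 1 of 14 members was at least 1.5-fold higher, against 6.32% of all genes, and none was lower, against 4.18%. That member was Lamb2, with 96.6 CPM in WT and 146 CPM in GKO (log2 ratio 0.59, 0.40 to 0.80), only just past 1.5-fold. It passed 1.5-fold under only 1 of 8 other settings, and with class limits doubled its ratio was 0.36. Itgb5 lay just inside, with 79.3 and 118 CPM (0.58, 0.36 to 0.80). Lamc1 (0.40, 0.24 to 0.57), Lamb1 (0.30, 0.14 to 0.47) and Lama2 (0.15, 0.02 to 0.28) had ratios above 0 but under 1.5-fold, and that of Lama2 turned to −0.07 with class limits doubled. The median over the 14 members was 0.27 and that over all genes of the class was 0.09. Pericyte markers came to 240 CPM in WT and 379 CPM in GKO stromal barcodes and antigen presentation genes to 1102 and 332 CPM, and their part in these ratios was not tested.

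The stromal class was not uniform. Barcodes with a UMI of the complement gene C3 made up 45.0% of the class in WT (122 barcodes) and 62.8% in GKO (393 barcodes), a split chosen after the data were seen. Lamc3 was at 30.4 CPM in C3-positive and 108 CPM in C3-negative WT barcodes, and at 56.8 and 127 CPM in GKO. Itga8 was at 9.05 and 44.7 CPM in WT and at 16.8 and 66.9 CPM in GKO, and so was also lower in C3-positive barcodes. Lama4 and Itgav were higher in C3-positive barcodes, Lama4 with 86.7 against 50.7 CPM in WT and 103 against 57.4 CPM in GKO. Lamb2 was higher in GKO within both kinds of barcode, with a log2 ratio of 0.68 (0.40 to 0.97) in C3-positive and 0.60 (0.31 to 0.90) in C3-negative barcodes. Lama2 had ratios of 0.45 (0.26 to 0.64) and −0.09 (−0.28 to 0.11) in these 2 kinds. Lamb1 had ratios of 0.49 (0.28 to 0.71) and −0.20 (−0.47 to 0.08). Both C3-negative intervals included no change, so a higher level in GKO was not seen in those barcodes.

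In macrophages 1 of 10 members was at least 1.5-fold higher, against 6.47% of all genes, and none was lower, against 3.19%. Itgam was at 26.6 CPM in WT (60 UMIs) and 54.6 CPM in GKO (249 UMIs), a log2 ratio of 1.04 (0.63 to 1.47). After thinning, an Itgam UMI was seen in 8.56% of WT macrophages (4.97% to 13.5%) and 18.6% of GKO macrophages (15.0% to 22.6%). Its neighbor Itgax had a ratio of 0.02 (−0.20 to 0.25), which changed sign under other settings, and Itgb2, the partner of both, had a ratio of −0.25 (−0.50 to −0.00). Itgb5 was lower in GKO by less than 1.5-fold (−0.42, −0.57 to −0.28) and Itga4 was higher by less than 1.5-fold (0.55, 0.21 to 0.90). The neutrophil markers S100a8 and S100a9 summed to 0.89 CPM in WT and 0.88 CPM in GKO macrophages.

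Macrophages also differed among themselves. Barcodes with a UMI of Mrc1, the mannose receptor, made up 36.0% of the class in WT (71 of 197) and 57.2% in GKO (259 of 453), again a split chosen after the data were seen. Itgam was at 50.0 CPM in Mrc1-positive and 14.7 CPM in Mrc1-negative WT barcodes, and at 82.4 and 20.5 CPM in GKO. Itga4 and Itgb1 were higher in Mrc1-positive barcodes in both libraries, Itga4 with 61.8 against 33.4 CPM in WT and 78.0 against 44.5 CPM in GKO. Itgax was the other way round, with 77.6 against 125 CPM in WT and 70.4 against 160 CPM in GKO, and Itga6 was also lower in Mrc1-positive barcodes. Within Mrc1-positive barcodes the Itgam ratio of GKO to WT was 0.72 (0.22 to 1.26), and within Mrc1-negative barcodes it was 0.48 (−0.29 to 1.30), each smaller than the 1.04 of the whole class but with overlapping intervals. Itgb5 was lower in GKO within Mrc1-positive barcodes (−0.74, −0.99 to −0.49), and its ratio within Mrc1-negative barcodes was −0.07 (−0.25 to 0.11).

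**Figure D4:**
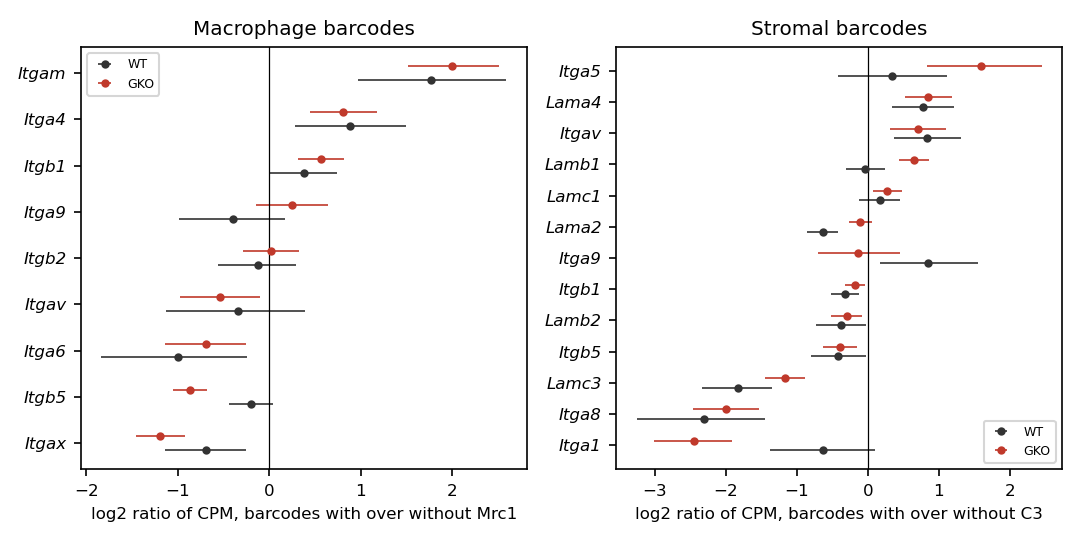
Log2 ratio of CPM between barcodes with and without an Mrc1 UMI among macrophages (left) and with and without a C3 UMI among stromal barcodes (right), for members with at least 20 CPM in the class in both libraries, with 95% Poisson intervals (WT black, GKO red). Itgam and Itga4 lie to the right and Itgax to the left in macrophages of both libraries, and Itga8 and Lamc3 lie to the left in stromal barcodes.

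In the endocrine classes the members past 1.5-fold were expressed at low levels. γ cells had 2 of 7 members higher and none lower, against 1.23% and 0.989% of all genes. Itgb8 was at 2.82 CPM in WT (48 UMIs) and 6.49 CPM in GKO (98 UMIs), a log2 ratio of 1.20 (0.69 to 1.73), and Itga6 was at 7.40 and 11.4 CPM (0.62, 0.28 to 0.97). The Itga6 ratio fell short of 1.5-fold with TMM factors (0.57) and with doubled class limits (0.56). Sst, the hormone of the δ cells that lead Itgb8, took 2.13% of the UMIs of WT γ cells with an Itgb8 UMI and 0.43% of those without, and 1.94% and 0.46% in GKO. Over all γ cells Sst took 0.56% in WT and 0.68% in GKO, and its part in the Itgb8 ratio was not tested.

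δ cells had 2 of 10 members lower and none higher, against 1.6% and 1.29% of all genes. Itgav was at 12.4 CPM in WT (204 UMIs) and 7.70 CPM in GKO (83 UMIs), a log2 ratio of −0.69 (−1.08 to −0.32). Itgb8, a β subunit known to pair with αv, was higher in GKO by less than 1.5-fold (0.33, 0.14 to 0.52). After thinning, Itgav and Itgb8 were both seen in 0.94% of WT δ cells (13 of 1378, 0.50% to 1.61%). In GKO they were both seen in 0.41% (4 of 980, 0.11% to 1.04%), and these intervals overlap. Itgb8 was seen in 16.0% of WT and 15.4% of GKO δ cells with Itgav, and in 13.4% and 16.9% of those without. The ratio of Itgb1 was −0.01 (−0.09 to 0.07). Acinar transcripts summed to 234 CPM in WT and 150 CPM in GKO δ cells, and their part in the Itgav ratio was not tested.

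α cells had 1 of 11 members higher, against 1.56% of all genes, and none lower, against 1.67%. It was Itga4, with 3.20 CPM in WT (45 UMIs) and 4.94 CPM in GKO (90 UMIs), a log2 ratio of 0.63 (0.09 to 1.18). It fell short of 1.5-fold with TMM factors (0.58), with doubled class limits (0.41) and without limits on genes or mitochondrial UMIs (0.48). Among the 8 classes Itga4 was led by macrophages, and antigen presentation genes summed to 28.2 CPM in WT and 107 CPM in GKO α cells and neutrophil markers to 0.57 and 3.29 CPM. Their part in the Itga4 ratio was not tested. Lama2 in α cells was higher in GKO by less than 1.5-fold (0.47, 0.14 to 0.81). β cells had 1 of 10 members lower, against 2.01%, and none higher, against 1.85%. It was Itga10, with 1.27 CPM in WT (112 UMIs) and 0.81 CPM in GKO (26 UMIs), a ratio of −0.65 (−1.33 to −0.03), which was −0.49 without limits on genes or mitochondrial UMIs. The main β cell integrins differed by less, with a ratio of −0.02 (−0.11 to 0.08) for Itgav, 0.18 (0.10 to 0.25) for Itgb1 and 0.42 (0.22 to 0.61) for Itga6.

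**Figure D5:**
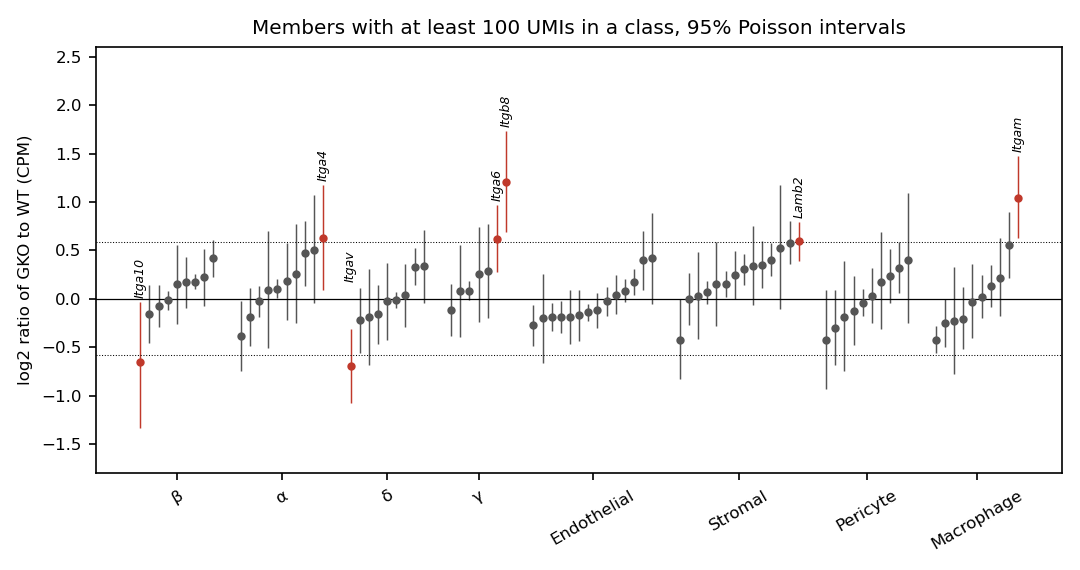
Log2 ratio of GKO to WT CPM for 83 of the 86 pairs of a member and a class with at least 100 UMIs, ordered by ratio within each class, with 95% Poisson intervals. Dotted lines are 1.5-fold, and the 7 pairs drawn past them are red and named, none of them in endothelial or pericyte barcodes.

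The partners of these genes were counted in 3 lists: 17 genes of the basement membrane, 16 other integrin ligands and 23 genes of focal adhesions and integrin activation. Their levels were taken in the 8 classes only, and not in ductal or other smaller classes. Basement membrane genes gave 73 pairs of a gene and a class with at least 100 UMIs, of which 8 were higher and 6 lower past 1.5-fold, beside the 2.74% and 2.18% of all such pairs. None of the 14 in endothelial barcodes was among them. Stromal barcodes, in which 6.32% of all genes were higher and 4.18% lower, held 6 of the higher ones (Col4a3, Col4a4, Bcam, Cd151, Col18a1 and Ntn4) and 2 of the lower ones (Col4a5 and Col4a6). Cd151, a tetraspanin that binds laminin-binding integrins, was at 97.6 CPM in WT and 169 CPM in GKO stromal barcodes (log2 ratio 0.79, 0.59 to 0.99), and Col4a5 was at 119 and 68.6 CPM (−0.79, −1.01 to −0.58). Outside the stromal class, Col18a1 (0.61) and Ntn4 (1.42) were higher in GKO pericytes. Col4a2 (−1.22) and Nid1 (−0.79) were lower in GKO β cells, and Nid1 (−0.97) and Bcam (−0.59) in GKO α cells. In β cells Col4a2 was at only 3.54 CPM in WT and 1.52 CPM in GKO, against 1313 and 1140 CPM in endothelial barcodes. Nid1 was at 1.67 and 0.96 CPM in β cells, against 497 and 586 CPM in stromal barcodes. Endothelial markers not used for the classes were in β cells at 0.34% and 0.25% of their endothelial level. The part of free RNA in these ratios was not tested.

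Integrin ligands gave 48 pairs, with 8 higher and 11 lower, beside the same 2.74% and 2.18%. Stromal barcodes had 3 lower, namely Mfge8, a ligand of αv integrins (1612 and 676 CPM, −1.25, −1.32 to −1.19), Vcam1, a ligand of α4 (218 and 76.5 CPM, −1.51, −1.69 to −1.33), and Postn (390 and 141 CPM, −1.47, −1.61 to −1.34). In pericytes 3 were higher, Fn1, Thbs1 and Postn, while stromal markers summed to 1209 CPM in WT and 1838 CPM in GKO pericytes, and the part of these was not tested. Spp1 (osteopontin), a ligand of αv, was led by γ cells among the 8 classes, at 232 and 349 CPM. It was higher in GKO in γ cells and in macrophages, at 53.6 and 144 CPM in the latter. It was lower in GKO α cells (61.5 and 23.9 CPM, −1.36, −1.53 to −1.20) and β cells (19.4 and 12.0 CPM, −0.69, −0.85 to −0.53). In macrophages Fn1 (−0.92), Thbs1 (−1.05) and Icam1 (−0.84) were lower in GKO. In β cells Fn1 was at 0.47 CPM in WT (41 UMIs) and 7.21 CPM in GKO (232 UMIs). That log2 ratio was 3.95 (3.47 to 4.47). In α cells Fn1 was at 0.64 and 0.71 CPM, in δ cells at 0.06 and 0.37 CPM and in γ cells at 0.29 and 0.33 CPM. The β barcodes that held the Fn1 UMIs were not counted, so a rise across β cells was not tested. Vtn in β cells (0.61) and Mfge8 in γ cells (1.03) were also higher in GKO. Vtn was at only 0.98 CPM in WT and 1.49 CPM in GKO β cells, against 734 and 916 CPM in pericytes. Vwf (−1.43) and Fbn1 (−0.94) in endothelial barcodes and Mfge8 (−0.68) in α cells were lower. Npnt, the ligand of α8, was led by δ cells at 32.4 and 41.0 CPM, with β cells next at 13.5 and 15.6 CPM. Hormone UMIs, which took 66.0% of the total in WT β cells and 30.6% in WT δ cells, were not left out of these values. The lead of δ cells over β cells is therefore given on this scale only.

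Focal adhesion genes gave 128 pairs, with 4 higher and 2 lower, near those shares of all pairs. Fermt1 (kindlin-1), which activates β subunits, was led by δ cells at 20.2 and 20.1 CPM, and Fermt3 (kindlin-3), its blood cell relative, by macrophages at 120 and 119 CPM. Pericytes led Vcl (vinculin), at 246 and 298 CPM, and Lims1, at 315 and 329 CPM. The higher pairs were Lims2 in pericytes (17.2 and 68.2 CPM, 1.99, 1.18 to 2.90) and in stromal barcodes (18.3 and 46.5 CPM, 1.34). Apbb1ip in stromal barcodes (0.80) and Ilk in pericytes (0.74) were higher too. Ptk2b was lower in GKO δ cells, with 42.6 and 26.9 CPM (−0.66, −0.87 to −0.46), and Pxn in GKO α cells (−0.74).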

How the data were processed

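Islet cells of 1 WT and 1 GKO pool were profiled by 10x Genomics 3′ single-cell RNA-Seq. The deposited values are UMI counts per gene and barcode, which the authors made with Cell Ranger 5.0.1 (STAR alignment, mm10 in the submitters' processing notes), without normalization and before any removal of ambient RNA.

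Barcodes were retained when they held 500 or more genes and no more than 10% of UMIs from mitochondrial genes. Endocrine classes needed at least 10% of UMIs from Ins1 and Ins2, Gcg, Sst or Ppy, and other classes at least 0.3% from their markers (endothelial Plvap, Kdr, Flt1, Emcn; stromal Pdgfra, Dcn, Lum, Col1a1; pericyte Rgs5, Pdgfrb, Kcnj8, Cspg4; macrophage C1qa, C1qb, C1qc). Ductal and B cell classes needed 0.1%, and neutrophils and antigen-presenting cells low in C1q needed 1%. Barcodes passing the rules of different lineages (106 in WT, 121 in GKO) were left out in place of a doublet caller. UMIs were summed per class and library and scaled to CPM. Ratios have exact 95% Poisson intervals and shares exact Clopper-Pearson intervals, for counting error only. The sums and intervals were tested on simulated data.

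The members and lists were chosen with earlier results of these data known. Members with at least 50 CPM in a class in both libraries were described. For GKO against WT, those past 1.5-fold with at least 100 UMIs were named. Ratios are given for some of the members with at least 100 CPM in both libraries, and for further members as context. Promoters came from RefSeq (GRCm38.p6) and gene positions from GENCODE vM21. Scripts ran in Python 3.11.15 (pandas 2.3.3, numpy 2.4.6, matplotlib 3.10.9, scipy 1.17.1), and R 4.3.3 with edgeR 4.0.16 gave TMM factors only. Alternatives changed the scaling, the total, the weight of cells, the class limits, the treatment of mixed barcodes, the limits on genes and UMIs, and the thinning depth. Counts cover all members, and 1 member and 1 marker are not reported here by name.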

Additional observations from a re-analysis of the deposited data

How the results depend on the processing

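The count of members led by 1 class was 13 and ranged from 11 to 17 over 9 alternatives. Itgb3 was lost under 5 of them (TMM, equal weight of cells, doubled class limits, mixed barcodes kept, strict hormone limits), Itga5 under TMM and Itgb6 with doubled limits. The count of pairs at least 1.5-fold higher in GKO went from 5 to 2 with edgeR TMM factors, to 3 without limits on genes or mitochondrial UMIs, and to 13 with genes of at least 20 UMIs, where the count of lower pairs went from 3 to 14. Among the pairs past 1.5-fold, Itgam in macrophages (0.94 to 1.23), Itgb8 in γ cells (1.15 to 1.56), and Itgav in δ cells stayed past it under all 8 alternatives of processing applied to ratios. Lamb2 in stromal barcodes passed it under only 1 of them (0.36 to 0.59), Itga4 in α cells under 5, Itga6 in γ cells under 6 and Itga10 in β cells under 7. Signs turned for Lama2 and Itgb1 in stromal barcodes (−0.02 each with equal weight of cells, −0.07 and −0.05 with doubled limits), for Lamb2 in endothelial barcodes (−0.05 with doubled limits, −0.02 with strict hormone limits), for Itgax in macrophages under 3 alternatives and for Itgb1 in δ cells with equal weight of cells, all with main ratios of at most 0.15. The splits by Mrc1 and C3 were chosen with the data in view. The cause of these changes was not tested. Depth limits the pericytes most, with a median of 4414 UMIs in WT and 4707 in GKO. No paired analysis was possible because each genotype has 1 library.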

Other observations

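Smaller classes also held members, some of them at a higher level than in any of the 8 classes. Ductal barcodes (67 in WT, 84 in GKO) carried chains known from epithelial laminin, with Lamb3 at 47.0 CPM in WT and 38.8 CPM in GKO and Lama3 at 14.7 and 18.3 CPM. Lama5 was their leading α chain, with 59.1% and 51.5% of laminin α UMIs. They also held Itgb4, the partner of α6 in hemidesmosomes, at 32.3 and 44.7 CPM, Itgb6 at 36.7 and 34.5 CPM, Itgb8 at 33.8 and 60.8 CPM and Itga3 at 30.1 and 62.3 CPM.

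Antigen-presenting barcodes low in C1q (30 in WT, 70 in GKO) were led by Itgb7 at 164 and 191 CPM and Itga4 at 143 and 154 CPM, the subunits of a gut-homing receptor, and held Itgae at 47.0 and 41.9 CPM. Itgb7 was at 3.54 and 2.19 CPM in macrophages. B cell barcodes (38 and 60) held Itga4 at 52.7 and 121 CPM and Itgb7 at 42.4 and 117 CPM. Neutrophils were 5 barcodes in WT and 33 in GKO, and in GKO Itgam was at 431 CPM (24 UMIs, 95% Poisson interval 276 to 641) and Itgal at 395 CPM.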
